A study of Mus musculus with 8 samples.

Results

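Of the 6440 m6A consensus intervals deposited for Mettl14-silenced mouse vascular smooth muscle cells (VSMCs), 1001 (15.5%) shared no base with any of the 6706 consensus intervals deposited for control cells. These 1001 knockdown-only intervals were chosen by comparing the interval files of the 2 shRNAs, so their presence in one file and absence from the other is the way they were selected and not a result. A consensus interval marks a place where both replicate libraries of one shRNA held an m6A peak, and the files give it a position and no value. The count depended on the replicate lists behind the sets. Rebuilt with one group represented by its other replicate alone, it was 364 when shCTR B was left out and 632 when shCTR A was. Leaving out shMettl14 A gave 1834 and leaving out shMettl14 B gave 3581. Limiting every list to the same number of strongest peaks gave 551. The opposite comparison gave 1140 control-only intervals, 17.0% of the control file. The 5439 knockdown intervals that did share bases with a control interval, called shared intervals here, served for comparison.

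The cells were primary VSMCs from the descending aorta of adult C57BL/6J mice, expanded in culture. They received lentivirus with either a hairpin against Mettl14 (shMettl14) or a nontargeting hairpin directed at a plant microRNA sequence (shCTR), so both groups carried a virus and a hairpin and neither was untransduced. Fragmented total RNA was immunoprecipitated with an antibody against m6A (IP), and 2 IP libraries per shRNA, A and B, were each compared with their own input library. The labels do not say whether A and B came from separate animals or cultures, so a spread between them may be technical, and a single hairpin was used.

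N6-methyladenosine (m6A) is a methyl mark on adenosine within messenger RNA. It is written by a complex built around METTL3 and METTL14, in which METTL14 helps to hold the RNA, and it is read by proteins of the YTH family that influence splicing, translation and decay of the marked RNA. The mark lies mostly in the sequence context DRACH, where D stands for any base but C, R for a purine and H for any base but G, and favours long exons and the surroundings of stop codons. Loss of a writer subunit is known to lower the mark across many transcripts.

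The following 25-nt windows show what such places look like in sequence. Each is centred on the DRACH site nearest to the peak summits, in the strand of the transcript from 5′ to 3′, with the DRACH letters in capitals. The first 6 belong to the intervals without any control peak that were strongest in the shMettl14 lists and had such a site in the chosen transcript within 50 nt of the summits, Klf4 and Virma to a smooth muscle regulator and a subunit of the m6A writer, and Arhgap29 to an interval where both control lists held a strong peak. Sequences and positions are those of GENCODE M21 on GRCm38.
Usf3: aaaagggcaaGGACTaactatgttg
Mlxip: gctcagatttGAACCagtggagttt
Aar2: cccagggctgGGACAgagatccgct
Irs2: ggtcaccacaGGACAcagatggcat
Ptch1: gaccataatgTGACCtccttttttg
Akap13: gggagctaccAGACAgctcttcaac
Klf4: gtatacaaagGAACTtttttaaaga
Virma: gccagtgaagAAACTgaccattctg
Arhgap29: tgtcctgtgcAGACAagtggtcaac
The windows lay at chr16:44218152-44218176 (plus strand, coding sequence of Usf3), chr5:123454607-123454631 (plus, 3′ UTR of Mlxip), chr2:156551290-156551314 (plus, coding sequence of Aar2), chr8:10985187-10985211 (minus, 3′ UTR of Irs2) and chr13:63511126-63511150 (minus, 3′ UTR of Ptch1). The others lay at chr7:75609014-75609038 (plus, coding sequence of Akap13), chr4:55532034-55532058 (minus, 5′ UTR of Klf4), chr4:11519248-11519272 (plus, coding sequence of Virma) and chr3:122014832-122014856 (plus, coding sequence of Arhgap29). Among these windows, GGACT, a strong form of the motif, was the nearest site only in Usf3.

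Most knockdown-only intervals still had an m6A peak in a control library. Of the 1001 intervals, 819 (81.8%, 95% Wilson interval 79.3% to 84.1%) shared at least 1 base with a peak of one or both shCTR lists. The shCTR A list alone covered 447 of them, the shCTR B list alone covered 179, and both lists covered 193 (19.3%, interval 17.0% to 21.8%). The remaining 182 (18.2%, interval 15.9% to 20.7%) had a peak in neither list, which is 2.83% of all 6440 knockdown intervals. The shCTR A list was the larger, with 11158 summits against 8655 in shCTR B, and it held a peak over 640 knockdown-only intervals against 372 for shCTR B.

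**Figure D1:**
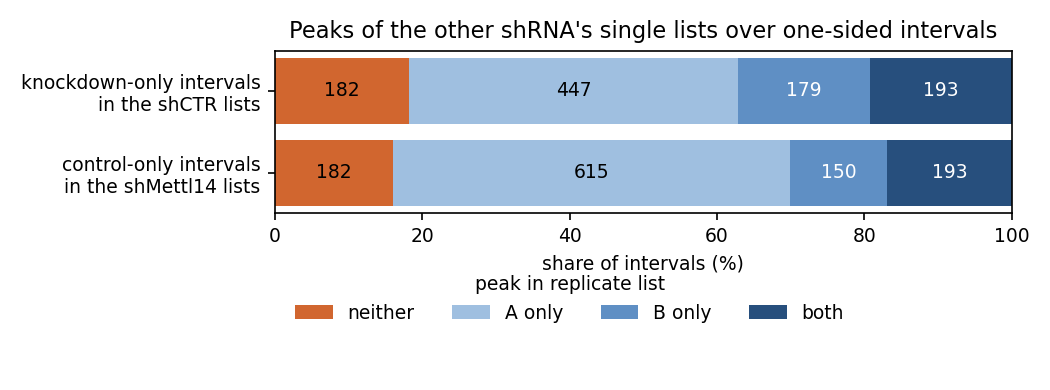
Share of one-sided intervals (x axis, %) that shared at least 1 base with a peak of the other shRNA's replicate lists, with the number of intervals in each segment. Of 1001 knockdown-only intervals, 182 had a peak in neither shCTR list, and of 1140 control-only intervals 182 had a peak in neither shMettl14 list.

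The control-only intervals showed a similar division. Of the 1140, 958 (84.0%) still had a peak in at least one shMettl14 list, 193 (16.9%) in both and 182 (16.0%) in neither. The numbers in both and in neither were the same for knockdown-only and control-only intervals, although they are different intervals with different totals. The interval files thus contained as many intervals without any peak of the other shRNA on one side as on the other, although the lists searched differed in size. The shMettl14 lists held 13675 (A) and 9256 (B) summits, against 11158 and 8655 in shCTR A and B. Since the sides were defined by the same files, the equal numbers were not tested.

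Most control peaks over knockdown-only intervals had their summit inside the interval, but fewer than over shared intervals. Control intervals follow control summits, so the rule already sorts intervals by where control summits lay. The comparisons with shared intervals here are therefore a description and were not tested. In shCTR A, 561 of 640 such intervals (87.7%) contained the control summit itself, against 98.7% for control peaks over shared intervals. Over all 640, also those with the control summit outside, the median distance to the nearer shMettl14 summit was 19 bp, against 16 bp. In shCTR B, 242 of 372 (65.1%) contained the control summit, against 97.8%. The median distance over all 372 was 45.5 bp, against 29 bp. Fold enrichment is the ratio of IP fragments to local background at the summit as given by the peak caller MACS2, and a percentile ranks it among all summits of the same list. The median percentile of these control peaks was 43.5 in shCTR A and 34.97 in shCTR B, against 71.2 and 66.4 for control peaks over shared intervals. At the summit the median number of fragments was 12 in the A and 11 in the B library of shCTR, against 24 and 21 at shared intervals. Where no control summit lay inside an interval, these values are those of the strongest overlapping peak, whose summit lay outside.

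In most of the 193 intervals with a peak in both control lists, the control summits did not both lie inside the interval. Each deposited interval contained a summit of both replicates, no gap between neighbouring summits in an interval was over 200 bp, and in 99.6% of the knockdown and 99.7% of the control intervals the ends lay about 100 bp outside the first and last summit. Of the 193, 22 contained no control summit, 89 a summit of shCTR A alone, 39 of shCTR B alone and 43 of both. The shCTR A and B peaks shared a base inside the interval in 190 of the 193. A window drawn from the control summits in the same way would have overlapped 45 of the 1001 intervals, and these windows were not among the control intervals used here. Without these 45, 956 intervals were left, of which 774 (81.0%) had a peak in at least one control list and 148 (15.5%) in both.

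Camk2g, Arhgap29, Rest, Wdr20 and 9930111J21Rik1 carried the strongest control peaks among the intervals with both. Where a list had no summit inside an interval, the value given for it here and below is that of the strongest summit of the peak reaching into the interval, and the summit itself lay outside. Camk2g encodes a subunit of the calcium/calmodulin-dependent kinase II. Its interval (chr14:20735983-20736219, exon outside the chosen transcript) had fold enrichments of 26.5 in shCTR A and 21.2 in shCTR B, against 8.30 and 9.83 in shMettl14 A and B. The interval in Arhgap29 (chr3:122014765-122014974, coding sequence) had 18.7 and 32.8 in the control lists and 18.7 and 20.99 in the knockdown lists. It was the strongest of the 5 in the knockdown lists. Its shCTR A summit lay inside the interval and its shCTR B summit 217 bp outside it. For Rest, a repressor of neuronal genes (chr5:77282798-77283008, coding sequence), the control values were 17.9 and 21.2 and the knockdown values 8.64 and 8.48. Wdr20 had 26.3 and 18.2 against 7.65 and 8.76, and 9930111J21Rik1 had 17.7 and 20.1 against 8.99 and 7.27. In Camk2g, Rest, Wdr20 and 9930111J21Rik1 the control summits lay outside the interval, and each interval ended 19 to 94 bp from a control consensus interval. These 5 were named because their control values were the highest, so their levels are a description.

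The 15 strongest intervals without a control peak were modest. They were ranked by the lower of their 2 shMettl14 percentiles, and their fold enrichments ran from 6.89 to 11.3 in shMettl14 A and from 7.52 to 11.2 in shMettl14 B, with 8 to 16 and 7 to 17 fragments at the summit. The highest percentiles were 81.7 and 74.8. Of the 15, 9 lay in genes with at least one shared interval elsewhere.

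Usf3, a large transcription factor gene, was first (chr16:44218055-44218258, coding sequence). Its fold enrichments were 10.6 and 11.2 in shMettl14 A and B, with 16 fragments at the summit in each, and Usf3 had 3 shared intervals as well. Mlxip (chr5:123454533-123454733, 3′ UTR), a glucose-sensing transcription factor also called MondoA, had 9.37 and 9.85. Flt3l, the ligand of the FLT3 receptor (chr7:45131226-45131433, exon outside the chosen transcript), had 10.5 and 9.51, and it lies within the span of the annotated gene Gm45713 on the same strand. Neither Mlxip nor Flt3l held a shared interval.

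Irs2, an adaptor of the insulin and IGF1 receptors (chr8:10985092-10985311, 3′ UTR), had 11.3 and 9.06 from 12 and 9 fragments. Ptch1, the receptor of Hedgehog ligands (chr13:63511034-63511235, 3′ UTR), had 8.12 and 9.88, and its interval ended 313 bp from a control interval. Akap13, an anchoring protein of protein kinase A (chr7:75608939-75609148, coding sequence), had 8.53 and 8.89. The remaining 9 of the 15 lay in Aar2, Preb, Nipbl, Lin54, Prss23, Popdc2, Dtx3l, Rpusd1 and Nhs. Nipbl loads cohesin onto chromosomes, Popdc2 is a cyclic AMP-binding membrane protein of muscle, and Dtx3l is a ubiquitin ligase of the DNA damage response.

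**Figure D2:**
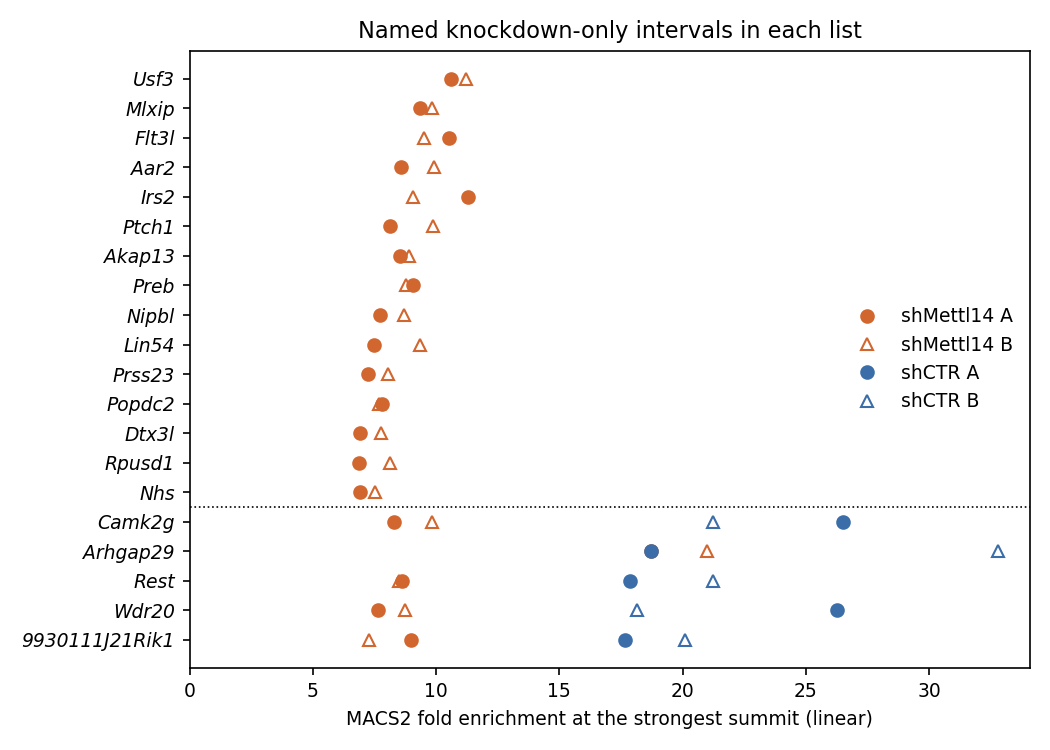
Fold enrichment at the strongest summit (x axis, linear) of the 15 strongest intervals without a control peak (above the dotted line) and the 5 intervals with the strongest peaks in both control lists (below it), one symbol per library. Above the line no blue symbol exists because neither control list had a peak there. In Arhgap29 the circles of shMettl14 A and shCTR A coincide at 18.7.

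Intervals without any control peak were also near control signal in part. Of the 182, 18 lay within 200 bp of a shCTR peak and 57 (31.3%) within 1000 bp. Of all 1001, 150 lay within 200 bp of a control consensus interval and 52 within 50 bp. At the edge of the rule, the interval in Spata13 touched a control interval without sharing a base (fold enrichments 8.41 and 6.02), and that in Btg2, an antiproliferative gene, was 1 bp away (4.42 and 5.65). Just outside the rule, an interval in Ier5l shared 1 base with a control interval (4.99 and 5.58) and one over Zfp703 shared 2 bases (14.2 and 13.8).

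Knockdown-only intervals were low in both shMettl14 lists. Their median percentile of fold enrichment was 40.9 in shMettl14 A and 28.7 in shMettl14 B, against 73.6 and 65.2 for shared intervals. At the strongest summit they had a median of 10 and 8 IP fragments, against 20 and 17, and 56.4% and 70.6% of them had 10 or fewer, against 12.01% and 22.0% of the shared intervals. The number of fragments was worked out from the deposited fold enrichment and p-value of each summit. Those without a control peak were lower still, with medians of 7 and 6 fragments, and those with a peak in both control lists were higher, with 14 and 11. Because the rule uses the same peak calls, these values describe the intervals and were not tested.

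**Figure D3:**
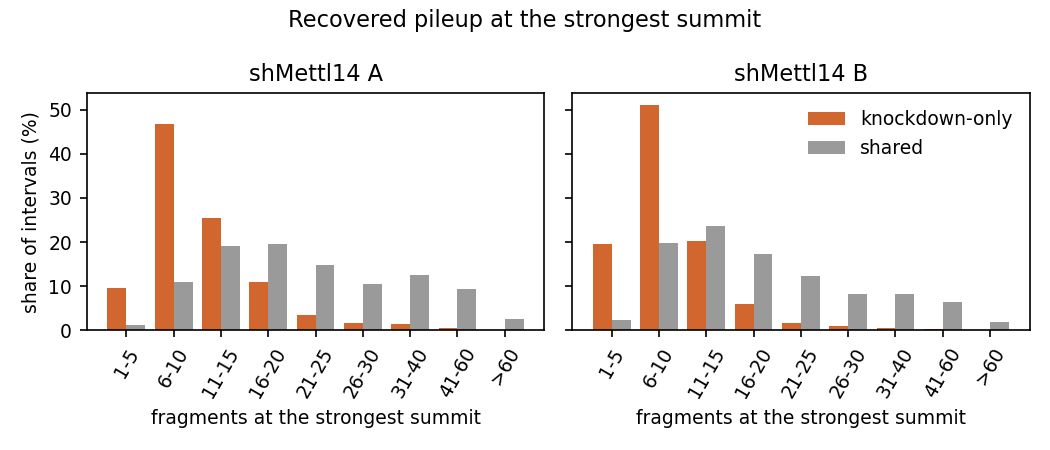
Number of IP fragments at the strongest summit (x axis, classes) in shMettl14 A (left) and shMettl14 B (right), as the share of the 1001 knockdown-only intervals (orange) and of the 5439 shared intervals (grey) in each class (y axis, %). In both lists most knockdown-only intervals had 10 fragments or fewer.

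The share of knockdown intervals that were knockdown-only fell with the number of fragments. Averaged over the 2 lists, intervals with 10 fragments or fewer were knockdown-only in 44.7% of cases (627 of these and 775 shared). Those with over 10 to 20 fragments were knockdown-only in 12.4% of cases (322 and 2279). Of those with over 20, 2.13% were (52 and 2385), and none of these 52 lacked a control peak, so the share without one was 0 of 52 (a count of 0 allows up to 5.77%), against 36 of 322 and 146 of 627 in the lower classes.

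Fewer knockdown-only intervals lay in mature coding transcripts than shared intervals did, and more lay in introns and between genes. The strongest summit was in coding sequence in 45.2% ± 0.28 of knockdown-only and 56.5% ± 0.40 of shared intervals (mean ± SD over shMettl14 A and B, n = 2). It was in a 3′ UTR in 24.8% ± 0.28 and 28.4% ± 0.40. Introns held 11.3% ± 0.071 of knockdown-only intervals against 3.31% ± 0.00 of shared ones, and intergenic sequence held 7.29% ± 0.00 against 2.55% ± 0.039. Thus 38.8% of the intronic and 34.3% of the intergenic knockdown intervals in shMettl14 A were knockdown-only, against 12.9% of those in coding sequence.

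The differences had the same sign in both lists. They were −11.3 percentage points for coding sequence, −3.62 for 3′ UTR, +8.03 for introns, +4.75 for intergenic sequence, +1.30 for exons of noncoding genes (3.90% against 2.59%) and +0.27 for 5′ UTR (2.20% against 1.93%). An exact sign-flip permutation test over 2 lists cannot go below p = 0.5 (two-sided), and each difference reached 0.5. Both lists scored the same intervals, and the summits of A and B in an interval are close by construction. The same sign in both lists was therefore nearly fixed in advance and is not replication. The SDs show only how far the choice of list moved a summit across an annotation boundary.

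**Figure D4:**
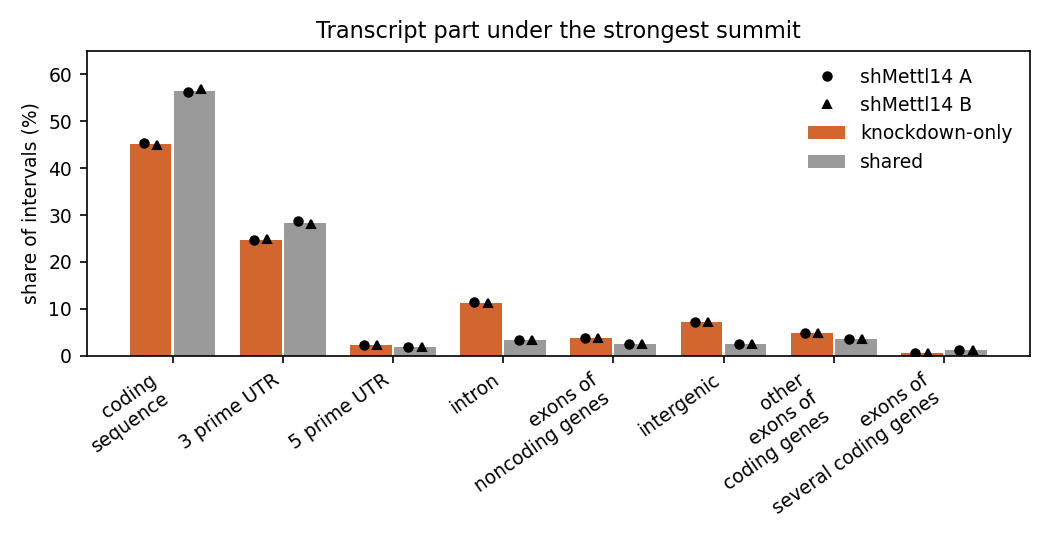
Share of intervals (y axis, %) whose strongest summit lay in each transcript part. Bars are means of the 2 shMettl14 lists for knockdown-only (orange) and shared (grey) intervals, and the symbols are the single lists. Introns held 11.3% of knockdown-only and 3.31% of shared intervals.

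The number of fragments moved with this difference. Among intervals with 10 fragments or fewer, coding sequence held 39.4% ± 0.45 of knockdown-only and 46.6% ± 0.091 of shared intervals, and introns held 13.9% ± 0.23 and 8.58% ± 0.27 (n = 2 lists). With over 10 to 20 fragments the coding shares were 54.2% ± 0.22 and 56.4% ± 0.59, and the intron shares 6.68% ± 0.22 and 3.01% ± 0.031. The coding difference was therefore smaller within a class than over all intervals, while the intron share was higher for knockdown-only intervals in both classes. With over 20 fragments, where only 52 knockdown-only intervals remained, coding sequence held 58.7% ± 1.36 and 59.8% ± 0.33, introns 9.62% ± 0.00 and 1.89% ± 0.059, and 3′ UTRs 19.2% ± 0.00 and 29.1% ± 0.30. Intergenic shares were 10.5% and 6.84% in the lowest class, 1.86% and 2.52% in the next and 1.92% and 1.17% in the highest, so the direction there was not the same in all classes. The 182 intervals without a control peak had the lowest coding share (37.1% ± 0.39) and the highest shares of introns (14.6% ± 0.39) and intergenic sequence (11.0% ± 0.00). The 193 with peaks in both control lists had 60.1% ± 1.47 in coding sequence, 6.22% in introns and 1.55% in intergenic sequence.

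The intronic intervals were spread over many genes. In both lists 109 knockdown-only intervals were intronic, in 89 coding genes, and no gene had more than 2. Pdgfd, a platelet-derived growth factor, Rbms3, an RNA-binding protein, and Trim30d were among the genes with 2. The median number of fragments at the summit of the 109 was 8 in shMettl14 A and 7 in shMettl14 B, and 26 of them had no control peak. Of the 73 intergenic intervals, 43 lay within 5000 bp of an annotated gene.

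Within coding transcripts, knockdown-only intervals had the position and motif usual for m6A. In the 722 intervals whose summit lay in the chosen transcript of a single gene, 26.3% ± 1.57 of summits were within 200 nt of the stop codon, against 28.5% ± 0.28 of the 4722 shared ones (n = 2 lists). The difference was −2.20 percentage points ± 1.28 (exact sign-flip permutation, p = 0.5, the smallest possible). Positions spread evenly over the same transcripts would have given 10.4%. The summits lay in long exons in both sets, with a median exon length of 2062 nt in knockdown-only and 2091 nt in shared intervals, and 65.6% and 64.2% lay in the last exon. Within 100 nt of an exon junction lay 5.47% ± 0.29 of knockdown-only and 2.93% ± 0.46 of shared summits.

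**Figure D5:**
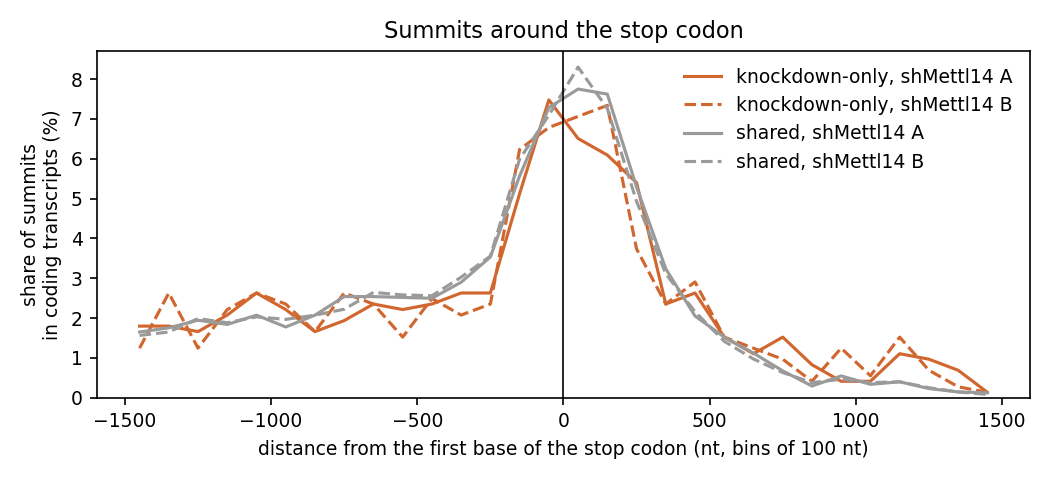
Share of summits in coding transcripts (y axis, %) per 100 nt of distance from the first base of the stop codon (x axis, negative values upstream), for knockdown-only (orange) and shared (grey) intervals in shMettl14 A (solid) and B (dashed). All lines rise around the stop codon, where 26.3% of knockdown-only and 28.5% of shared summits lay within 200 nt.

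A DRACH site within 50 nt of the summit was found in 96.3% ± 0.00 of knockdown-only and 96.7% ± 0.090 of shared intervals (n = 2 lists), against 87.6% of all positions in the transcripts of the knockdown-only set. DRACH is a frequent motif, so this window separates little. GGACT lay within 50 nt in 23.1% ± 0.39 and 23.7% ± 0.57, against 11.1% of all positions in the same transcripts. Only the transcript strand was searched. The differences between the sets were −0.44 ± 0.090 points for DRACH and −0.59 ± 0.18 for GGACT, and the exact sign-flip permutation p was 0.5 for each. At the DRACH site nearest to the summit, GGACA and GGACT were the leading forms in shMettl14 A, with 11.5% and 9.64% of 695 knockdown-only sites and 11.4% and 10.2% of 4563 shared ones. The median distance from summit to site was 10 nt in both sets.

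The intervals were spread over 792 genes by exon, 20.0% of the 3967 genes with any knockdown interval. A single knockdown-only interval was found in 740 of them. Of the 792 genes, 363 (45.8%) also held a shared interval and 127 (16.0%) also held a control-only interval, while 388 had no control consensus interval in their exons. Control-only intervals lay in exons of 915 genes in all. Ahnak, a giant scaffold protein, had the most with 4, beside 20 shared and 4 control-only intervals, and each of the 4 had peaks in both control lists, at fold enrichments of 4.11 to 5.93 in the knockdown and 2.90 to 4.53 in the control lists. Kmt2a, a histone H3 methyltransferase, Zbtb5, a zinc finger factor, and Zeb1, a repressor of epithelial genes, had 3 each, and each of these had a peak in at least one control list. These genes had 0 intervals without a control peak, beside 18.2% of all 1001. With so few intervals the count says little about these genes and was not tested.

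Of the 9 genes of the m6A machinery with a knockdown interval, 5 held a knockdown-only one, beside 20.0% of all genes with a knockdown interval. Control-only intervals lay in 3 genes of the list, Virma, Rbm15 and Ythdc1. No test was made of these counts. Virma, the scaffold of the writer complex, was the one without a control peak (chr4:11519132-11519332, coding sequence), at fold enrichments of 11.7 in shMettl14 A and 7.18 in shMettl14 B from 16 and 9 fragments. Virma also held 2 shared and 1 control-only interval.

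The other 4 machinery genes had a peak in at least one control list. Rbm15, an adaptor of the writer complex, had 2 intervals with peaks in both control lists. In its coding sequence the values were 6.98 and 6.80 in shMettl14 A and B and 12.7 and 15.1 in shCTR A and B, whose summits lay 403 and 957 bp outside the interval. In its 5′ UTR they were 6.82 and 7.94 against 10.3 and 5.60, with the shCTR A summit inside and the shCTR B summit 151 bp outside. Zc3h13, another writer subunit, had 7.80 and 9.94 with 6.52 in shCTR A. The readers Ythdf1 (5.17 and 5.96 against 3.93 and 5.14) and Ythdf3 (6.77 and 5.97 against 8.41 and 16.2) had peaks in all 4 lists. Both control summits lay inside the Ythdf1 interval, while the shCTR B summit of Ythdf3 lay 224 bp outside. The Ythdf1 interval was among the 45 over a control window not listed, as were all 4 in Ahnak, both in Fat1, those in Lox, Jund and Actn1 and one of those in Kmt2a. Mettl14 itself had no summit in its exons in any of the 4 lists, so the peak lists do not show how far it was silenced.

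Among 12 SRF, myocardin, MEF2 and KLF factor genes with a knockdown interval, Klf4 alone held a knockdown-only one (8.33%, beside 20.0% of all genes with a knockdown interval), and 0 of the list held a control-only one. KLF4 is a transcription factor that represses the contractile programme of smooth muscle. Its interval lay in the 5′ UTR (chr4:55531946-55532175) with no peak in either control list, at fold enrichments of 7.34 and 6.73 from 11 and 12 fragments, and the gene also held 2 shared intervals. Of 9 genes that the study chose on these samples for a loss of m6A, 7 had a knockdown interval, 2 (Klf4 and Col18a1) a knockdown-only one and 3 (Col1a1, Fbln2 and Lpar2) a control-only one. Col18a1, a basement membrane collagen, had 6.15 and 6.55 with a peak of 6.71 in shCTR B. Since that list was drawn up from these samples, it is not independent evidence of a direction.

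A list of receptor tyrosine kinases, their growth factor ligands, insulin receptor substrates and FOXO factors had knockdown-only intervals in 6 of 20 genes with a knockdown interval. These were the receptors Igf1r and Met, the substrates Irs1 and Irs2, the transcription factor Foxo1 and the ligand Flt3l. The background over all genes was again 20.0%, here and for the lists that follow, and no count was tested. Control-only intervals lay in 4 genes of the list (Met, Irs1, Irs2 and Foxo4). Irs2 and Flt3l were without a control peak and are described above. The Irs1 interval was the strongest of this list, at 16.2 and 11.0, with a peak of 17.4 in shCTR A and none in shCTR B. Met, the receptor of hepatocyte growth factor, had 9.26 and 9.20 with 8.37 in shCTR A. The shCTR A value of Irs1 was above both knockdown values and that of Met was below both, and shCTR B had no peak over either.

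Few genes of the smooth muscle contractile apparatus could be assessed. Of 22, 5 had a knockdown interval, and Synpo2 and Actn1 had a knockdown-only one, while 4 of the list, Myh11, Lmod1, Cald1 and Myom1, had a control-only one. Synpo2, an actin-bundling protein of the Z-disc, had 8.46 and 7.63 with 9.59 in shCTR A, and the Actn1 interval had peaks in both control lists and also lay over exons of Gm47766. Collagen, elastic fibre and matrix genes had 4 of 25 (16.0%, beside 20.0% over all genes, Col6a2, Col6a3, Col18a1 and the collagen cross-linking enzyme Lox), each with a control peak, and 5 with a control-only interval. Proteases, the plasminogen system and their inhibitors had 2 of 7, and 0 with a control-only interval. Adam17, a sheddase (chr12:21324196-21324417, 3′ UTR), had no control peak at 6.85 and 5.56, and Adamts5, an aggrecanase, had 6.43 and 5.80 against 17.6 and 5.26 in the control lists, with the shCTR A summit 235 bp outside its interval.

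Genes with a knockdown-only interval lacking any control peak were 143 of the 3967 with a knockdown interval, and the 5 further lists held 0 of them. Wnt, Notch and Hippo genes had 7 of 27 (Fzd1, Axin1, Apc, Hey2, Fat1, Fat4 and Dchs1), and AP-1, immediate early and NF-kB factors had 4 of 21 (Jund, Egr3, Nfkbiz and Socs5). Chromatin modifying and remodelling genes had 4 of 43 (Kmt2a, Kmt2c, Kdm5b and Bptf), TGF-beta, BMP and SMAD genes had 1 of 21 (Acvr1), and cyclins, CDK inhibitors, E2F and p53 factors had 0 of 10. Control-only intervals lay in more genes of most of these lists than knockdown-only ones did, as they did over all genes (915 against 792). Genes with a control-only interval need not hold a knockdown interval, and the counts were not tested against each other. They lay in 15 chromatin genes, 9 Wnt, Notch and Hippo genes, 6 AP-1, immediate early and NF-kB factors, 2 cell cycle genes (E2f1 and E2f3) and 1 TGF-beta gene (Smad3). In these groups each knockdown-only interval had a peak in at least one control list. Socs5, a suppressor of cytokine signalling, had 14.9 and 11.3 in the knockdown lists, 8.92 in shCTR A with the summit inside, and 21.4 in shCTR B with the summit 102 bp outside. Its interval ended 2 bp from a control consensus interval. Acvr1, a BMP type I receptor, had 11.9 and 9.85 in the knockdown and 14.9 and 16.0 in the control lists, whose summits lay 126 and 130 bp outside. The Acvr1 interval ended 25 bp from a control consensus interval. Over all lists, 40 knockdown-only intervals lay in exons of a single listed gene (35 genes), of which 19 (47.5%, against 19.3% of all 1001) had peaks in both control lists and 5 (12.5%, against 18.2%) in neither.

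Markers of other cell types gave 1 gene with a knockdown-only interval and 1 with a control-only interval. Of the 9 endothelial markers, 3 had a knockdown interval and Cdh5, the endothelial cadherin, had a knockdown-only one. Its values were 5.38 and 5.65 against 5.72 and 14.2 in the control lists, whose summits lay 133 and 667 bp outside the interval. Kdr, a VEGF receptor, had a control-only interval, with summits in both shCTR lists and in shMettl14 A. Pecam1 and Cdh5 had m6A peaks in all 4 lists, while Vwf had none in any list. RNA of some endothelial genes was thus present in both groups, and its part in the results was not tested. Of the 10 fibroblast and adventitial markers, 1 had a knockdown interval and none a knockdown-only one. Of the leukocyte markers, 0 of 9 had a knockdown interval. For the cells' own identity, Lmod1 had peaks in all 4 lists and Myh11 in 3, while Acta2, Tagln, Cnn1 and Smtn had none in any list. A gene without an m6A peak can still be expressed.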

How the data were processed

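Of 8 samples, the 4 IP samples (shCTR A and B, shMettl14 A and B, named by their titles) had peak lists, and the 4 inputs entered only as the authors' background. Per the labels and methods, the authors aligned reads to mm10 with STAR, used SAMtools to keep unique reads, and ran MACS2 on every IP with its own input as background. The versions and options are not given in the sources used here. The deposited lists hold the fold enrichment (a ratio to local background) and −log10 of the p-value and q-value at each summit, and the deposited interval files give positions, described by the authors as the overlap of both replicates of an shRNA and found to follow runs of summits from both. The authors did not pool replicates for peak calling. The peak lists give no read totals per library, so the single depth that the methods state for all samples could not be checked. The fragments at each summit and the background were recovered from the deposited fold enrichment and −log10 p, assuming MACS2's Poisson model with 1 added to both, and matched to within 0.001 for all summits of the 4 lists.

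The knockdown-only intervals and the gene lists were chosen with earlier results of these data known. Intervals were compared at 1 shared base (checked with bedtools 2.31.1) and placed with GENCODE M21 (GRCm38), using for each of 21606 genes the complete coding transcript with the longest coding sequence and, in each list, the strongest summit inside the interval. Reads were not assigned to a strand. Named intervals were, by rule, the 15 without a control peak in exons of a single gene with the highest lower percentile in the shMettl14 lists, the 5 with the strongest peaks in both shCTR lists, those in listed genes, the genes with the most intervals, and those at the edge of the rule. The division by fragment number and the control windows rebuilt from summits were added after the data were seen. Wilson intervals (95%) cover counting error over intervals only, and fragments are not independent molecules. The interval and motif code was tested on simulated data. All steps ran in Python 3.11.15 (SciPy 1.17.1, pandas 2.3.3, NumPy 2.4.6).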

Additional observations from a re-analysis of the deposited data

How the results depend on the processing

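Of 71 alternative values for 13 results, 0 reversed and 20 moved past the limit set for them (1.5 times for the count, the Wilson interval for shares and 1 SD for percentiles). The count and the shares in control lists could only be scored as moved. Differences in parts, stop codon and motifs could only be scored as reversed, whatever their change in size. The 20 of 71 therefore does not show how steady the sizes were. The 6 transcript parts, the stop codon share and both motif shares kept their direction with the midpoint of the interval and without either shMettl14 list. Leaving out a list here meant using the summits of the other list on the same intervals, which were not rebuilt. The direction could therefore hardly change. The parts also kept their direction with any annotated transcript, and the stop codon and motif shares with other windows (100 and 400 nt at the stop codon, 25 and 100 nt for motifs). Sizes differed. In percentage points the stop codon difference (−2.20) ran from −1.29 to −4.97, that of DRACH (−0.44) from −0.37 to −1.61 and that of GGACT (−0.59) from −0.46 to −1.34. With the numbers of fragments in place of fold enrichment, the difference in median percentile between knockdown-only and shared intervals went from −34.7 to −40.6. The number of knockdown-only intervals stayed between 851 and 1428 when the overlap rule, a stricter −log10 q of 3 or rebuilt sets were used, including 1030 from windows rebuilt from summits, an alternative added after seeing the data. With 8655 top peaks per list it was 551. With a group represented by its other replicate alone it ranged from 364 without shCTR B (632 without shCTR A) to 3581 without shMettl14 B (1834 without shMettl14 A). The share with a peak in at least one control list, 81.8%, was 77.8% when 50% of the interval had to be covered, 75.9% with a control summit inside, 78.3% at a −log10 q of 3 and 71.2% with equal list sizes. Under the same settings the share in both control lists, 19.3%, was 15.7%, 4.30%, 16.7% and 14.6%, it was 24.3% when peaks within 200 bp counted, and 15.5% without the 45 intervals over rebuilt control windows. Without one control list both shares become the share covered by the other list, from 37.2% without shCTR A to 63.9% without shCTR B. For the 20 named intervals, 31 of 40 percentiles by −log10 p or fragments moved by over 1 SD of A and B, and 32 of 40 were lower than by fold enrichment. No paired analysis was possible because the contrast that the letters A and B could pair, shMettl14 against shCTR, chose the intervals, which leaves no independent test of it on them. The tests that were run took differences within each shMettl14 list. Low fragment numbers, often 10 or fewer, limit what a missing control peak shows, since signal just under the peak caller's threshold is not listed.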
